A study of Mus musculus with 8 samples.

Results

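The genes described here are 8 that code for collagens and other matrix proteins of cartilage: Col2a1, Col9a1, Col9a2, Col9a3, Col11a1, Col11a2, Acan and Chad. They were taken by symbol, by a rule that uses no measured value, but were chosen with earlier results of these data known. Counts over them are thus descriptions. All 8 of the 8 symbols had a row among the 19150 genes of the deposited table. The lungs came from E17.5 embryos of C57BL mice and were sequenced whole, with oesophagus, trachea and bronchi dissected off. The 8 libraries formed 4 groups of 2: mutant males, control males, mutant females and control females. Mutants expressed a constitutively active form of Tgf-b receptor 1, the type I receptor of the TGF-β pathway, and the treatment label places the activation in the lung epithelium. Controls are labelled only as control, and the labels name neither an allele or agent that they share with the mutants, nor the driver of the active receptor, nor whether each library came from 1 embryo. The p-values below measure the spread between these libraries, which may be technical.

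Hyaline cartilage gets its tensile strength from thin fibrils in which collagen II is the main component. Collagen XI lies within those fibrils and limits their width, and collagen IX sits on their surface with its side arms pointing outwards. Aggrecan, a large proteoglycan, fills the space between the fibrils with bound water. In the respiratory tract of the mouse, cartilage forms mainly in the rings of the trachea and in the main bronchi. The series title names a male disadvantage in bronchopulmonary dysplasia, so the genotype effect was asked for in each sex and compared between the sexes.

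Depth ran from 17561012 to 20243205 reads in genes per library, and the 8 genes took 0.00400% to 0.0115% of them. In 8 of 8 libraries the sex-linked genes matched the label. Tgfbr1 itself read 82.5 and 95.9 CPM (read counts scaled by library size with the TMM method) in mutant males against 83.6 and 79.7 in control males, and 80.5 and 92.3 CPM in mutant females against 88.6 and 98.6 in control females. Its groups overlapped in both sexes, and whether reads of the active receptor are among its counts cannot be told here. Of 22 further matrix and chondrocyte genes looked up, 8 had no row, namely Matn1, Comp, Snorc, Ucma, Epyc, Scrg1, Col10a1 and Ihh. In bulk RNA, fewer cells of a type and less RNA per cell cannot be told apart.

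The 250 bases before the annotated starts of Col9a1, Col11a1 and Chad are printed because Col9a1 and Col11a1 varied together across the libraries and Chad varied against Col9a1. They are from RefSeq on GRCm38.p6, 5′ to 3′ on the plus strand, which is the coding strand of all 3 genes. Capitals mark a GC box (GGGCGG or its complement CCGCCC, a binding site of Sp factors) or a TATA box (TATAAA, searched on both strands).
Col9a1, chr1:24177360-24177609: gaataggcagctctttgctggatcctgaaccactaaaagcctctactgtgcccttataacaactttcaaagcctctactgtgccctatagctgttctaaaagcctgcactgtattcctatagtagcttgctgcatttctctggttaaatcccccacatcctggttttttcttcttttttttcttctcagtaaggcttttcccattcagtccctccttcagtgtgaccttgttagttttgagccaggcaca
Col11a1, chr3:114030290-114030539: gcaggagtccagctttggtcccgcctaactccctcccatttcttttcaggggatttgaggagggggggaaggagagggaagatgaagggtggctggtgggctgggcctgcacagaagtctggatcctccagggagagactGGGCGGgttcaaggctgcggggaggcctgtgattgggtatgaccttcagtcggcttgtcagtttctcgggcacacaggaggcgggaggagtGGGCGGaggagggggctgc
Chad, chr11:94564797-94565046: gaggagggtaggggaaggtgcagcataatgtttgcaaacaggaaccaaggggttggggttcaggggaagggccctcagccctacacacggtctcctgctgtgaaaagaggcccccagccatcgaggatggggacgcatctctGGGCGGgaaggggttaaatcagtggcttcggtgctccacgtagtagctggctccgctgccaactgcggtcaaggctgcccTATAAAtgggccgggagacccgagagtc
The Col9a1 window was 43.6% G and C with 0 CpG dinucleotides and held neither motif. The Col11a1 window was 62.4% G and C with 7 CpG and held GC boxes that begin 110 and 19 bases before the start. The Chad window was 60.4% G and C with 10 CpG and held a GC box that begins 108 bases and a TATA box that begins 28 bases before the start. Over the 32851 windows of this length in the table, the median was 52.4% G and C and 6 CpG, a GC box stood in 32.7% and a TATA box in 12.4%. The core ACAAAG or ACAATG of SOX sites, searched on both strands, stood in 25.2% of all windows and in none of the 3 printed here. These are matches of letters and not measured binding. In the table, 6 of the 8 genes had an entry, and Col9a1 has a further start at chr1:24194953-24195202 (window, 56.0% G and C, 0 CpG), which the gene counts cannot set apart from the first.

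Compared per length, the genes of collagen IX stood at the top and Col2a1 and Acan at the bottom. Levels between genes are given as RPKM recomputed with merged GENCODE M21 exons (reads per kilobase of exon, scaled to library size). Over the 8 libraries the mean on that scale was 4.90 for Col9a2, 4.28 for Col9a3, 2.52 for Col9a1, 2.06 for Chad, 1.61 for Col11a2, 1.44 for Col11a1, 0.285 for Col2a1 and 0.0470 for Acan. The collagen II gene was thus read less, per length, than each gene of its usual fibril partners. Neighbours in this order overlapped between libraries down to Col11a1 (Col9a2 at 3.35 to 6.25, Col9a3 at 1.24 to 7.58), whereas Col2a1 at 0.0529 to 0.60 and Acan at 0.0144 to 0.0679 lay below them with Col11a1 at 0.635 to 2.12. The deposited RPKM use gene lengths that are 1.00 times (Chad) to 3.5 times (Col11a2) the merged exons, and they put Chad (mean 2.05 RPKM) above Col9a3 (1.72), Col9a1 (1.47), Col11a1 (0.978) and Col11a2 (0.460).

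In mutant males, Col9a1 and Col9a3 rose against control males, and in the same contrast 5 of the 7 genes tested had both mutant libraries above both control libraries, as did 26.9% of all genes. Col9a2 averaged 14.8 to 15.4 CPM in the 4 groups, and Chad, a leucine-rich repeat protein that binds collagen and integrin, ran the other way. In females no gene passed the test. Acan had too few reads to be tested. The plot of CPM by library shows all 8 genes.

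**Figure D1:**
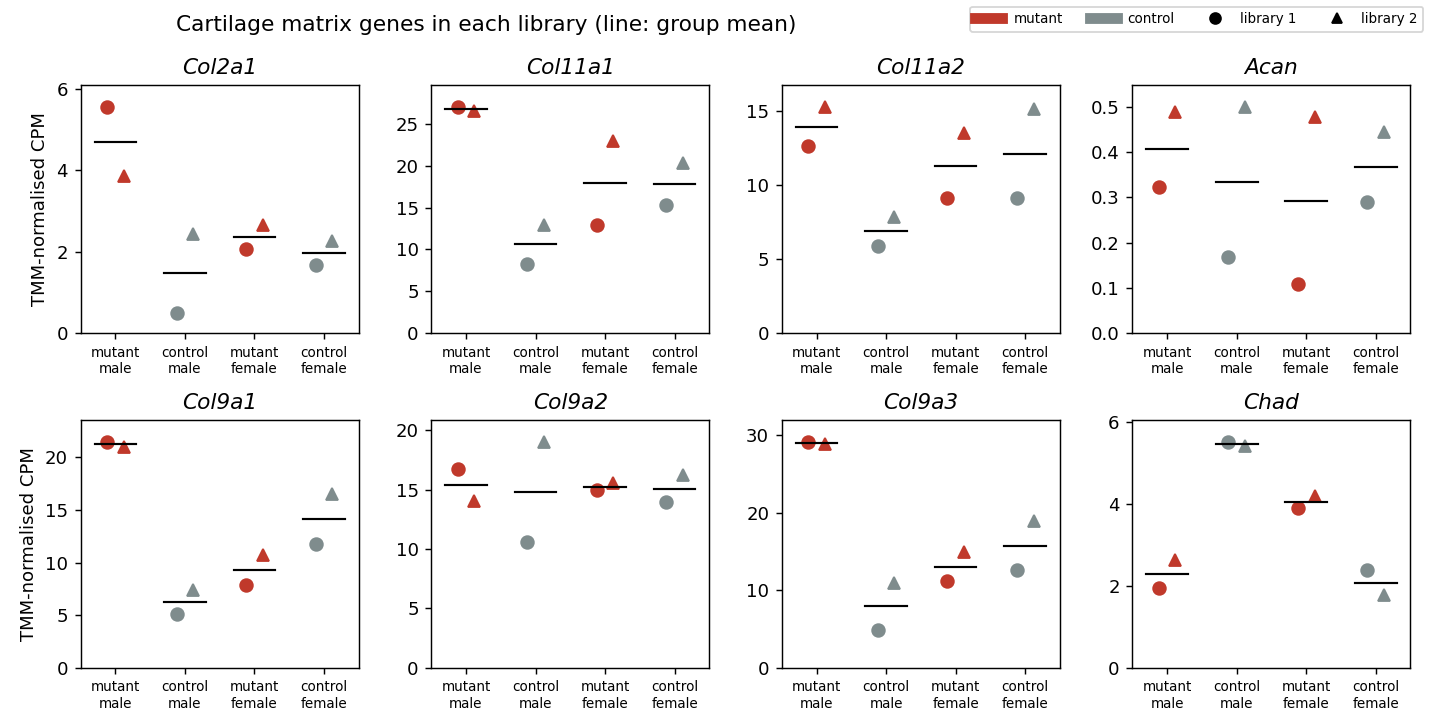
TMM-normalised CPM (linear axis from 0, own scale in each panel) of the 8 genes in every library; red is mutant, grey is control, circles and triangles are libraries 1 and 2 of a group, and the line is the mean of 2 libraries. Col9a3 stood at 29.1 and 28.9 CPM in mutant males and 4.90 and 11 CPM in control males, while Col9a2 overlapped between the groups of each sex.

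Col9a1 (ENSMUSG00000026147, GRCm38 chromosome 1, 24177610 to 24252684, plus strand) codes for the first chain of collagen IX. It was at 21.4 and 21.0 CPM in mutant males against 5.07 and 7.37 CPM in control males, and at 7.86 and 10.7 CPM in mutant females against 11.8 and 16.5 CPM in control females. Mutants thus lay above controls in males and below them in females, with no overlap in either sex. In males the log2 change was 1.77 ± 0.25 (SE; edgeR quasi-likelihood test, adjusted p = 0.0284 over 18164 genes), a ratio of mean CPM of 3.41. In females it was -0.61 ± 0.24 with an adjusted p = 1 by the same edgeR test and an unadjusted p = 0.0333. By mean the order of the 4 groups was mutant males (21.2 ± 0.300 CPM, SD, n = 2), control females (14.2 ± 3.34), mutant females (9.28 ± 2.01) and control males (6.22 ± 1.63).

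Col9a3 (ENSMUSG00000027570, GRCm38 chromosome 2, 180597790 to 180622189, plus strand) codes for the third chain of the same collagen. Its levels were 29.1 and 28.9 CPM in mutant males against 4.90 and 11 CPM in control males, and 11.2 and 14.9 CPM in mutant females against 12.6 and 18.9 CPM in control females. The male groups were apart and the female groups overlapped. The log2 change in males was 1.87 ± 0.34 (SE; edgeR quasi-likelihood test, adjusted p = 0.0449) and in females -0.27 ± 0.33 (edgeR, adjusted p = 1). Tcfl5, which overlaps the gene on the minus strand, had only 46 reads in all libraries together.

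Col9a2 (ENSMUSG00000028626, GRCm38 chromosome 4, 121039385 to 121055322, plus strand) codes for the second chain and did not follow the other chains. It had 16.7 and 14.0 CPM in mutant males against 10.6 and 19.0 CPM in control males, and 15 and 15.5 CPM in mutant females against 13.9 and 16.2 CPM in control females. Each mutant range lay inside the control range of its sex. The log2 change was 0.05 ± 0.25 (SE) in males, with an edgeR adjusted p = 0.926, and 0.01 ± 0.25 in females, with an adjusted p = 1.

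Collagen IX is built from 1 chain of each gene, so the ratio between their levels was set out by library. These ratios were chosen after their values had been seen. Per length, Col9a3 stood at 1.40 and 1.65 times Col9a2 in mutant males against 0.370 and 0.464 times in control males, and at 0.60 and 0.773 times in mutant females against 0.726 and 0.935 times in control females. Only in the mutant male libraries was Col9a3 above Col9a2 on the merged-exon scale, and on the deposited RPKM scale it was below Col9a2 in all 8 libraries. Col9a1 stood at 0.782 and 0.915 times Col9a2 in mutant males against 0.291 and 0.237 times in control males, and at 0.321 and 0.421 times in mutant females against 0.517 and 0.621 times in control females. Pooled over sex, neither ratio passed an exact permutation test of 4 mutant against 4 control libraries, which cannot go below 0.0286 (two-sided p = 0.143 for Col9a3 to Col9a2 and p = 0.314 for Col9a1 to Col9a2). Adjusted by Benjamini-Hochberg over 5 chain ratios these exact permutation values were 0.238 and 0.314. The log2 ratio of Col9a3 to Col9a2 differed by 1.88 between mutant and control males and by -0.28 between mutant and control females, and these differences within a sex were not tested.

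**Figure D2:**
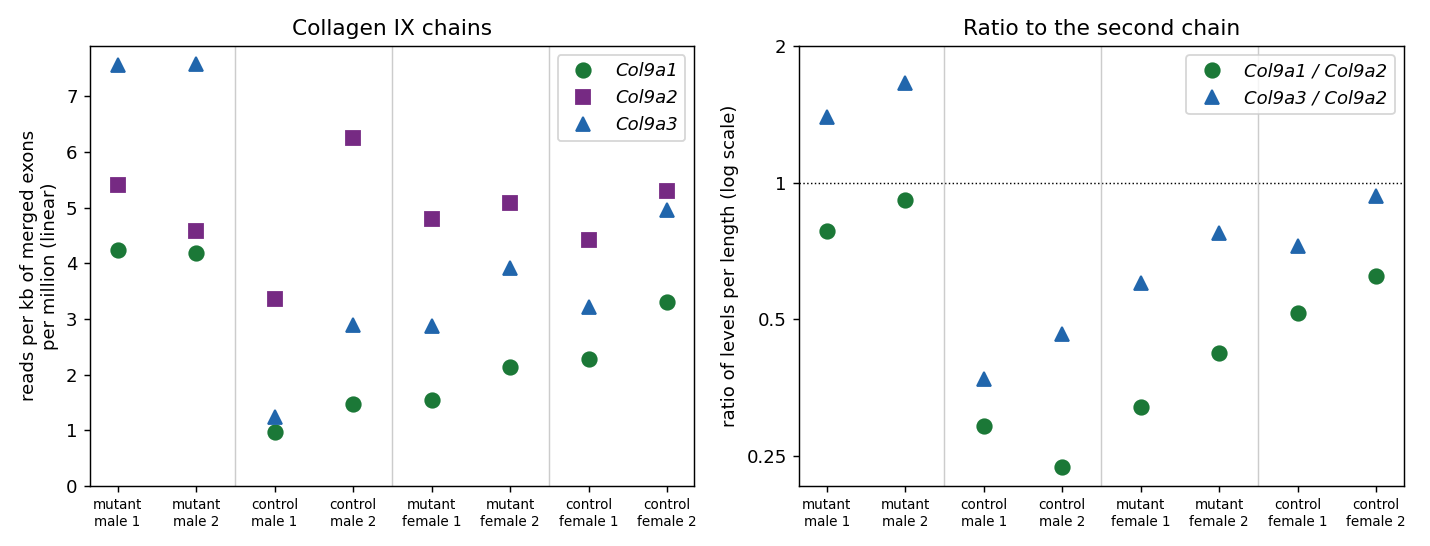
Left, level of each collagen IX chain in every library (RPKM recomputed with merged exons, linear axis from 0). Right, ratio of Col9a1 and of Col9a3 to Col9a2 (log axis, dotted line at 1); the Col9a3 ratio was 1.40 and 1.65 in the mutant males and 0.370 to 0.935 in the other 6 libraries.

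The genes of collagen XI and collagen II, the chains inside the fibril, were higher in mutant than in control males as well, but did not pass the test. Col11a1 (ENSMUSG00000027966, GRCm38 chromosome 3, 114030540 to 114220718, plus strand) codes for the α1(XI) chain. It had 27 and 26.5 CPM in mutant males against 8.29 and 13 CPM in control males, and 12.9 and 22.9 CPM in mutant females against 15.3 and 20.3 CPM in control females. The male groups were apart, while the control female values lay inside the mutant female range. The log2 change was 1.33 ± 0.30 (SE) in males, with an edgeR adjusted p = 0.0709, and 0.01 ± 0.29 in females, with an adjusted p = 1.

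Col11a2 (ENSMUSG00000024330, GRCm38 chromosome 17, 34039437 to 34066685, plus strand) codes for the α2(XI) chain and showed the same order in males at a smaller size. Mutant males had 12.7 and 15.2 CPM against 5.90 and 7.87 CPM in control males, and mutant females had 9.11 and 13.5 CPM against 9.12 and 15.1 CPM in control females. The log2 change was 1.02 ± 0.29 (SE; edgeR adjusted p = 0.130) in males and -0.10 ± 0.29 (adjusted p = 1) in females. Per length, Col11a1 stood at 0.758 to 0.889 times Col11a2 in control males and 0.939 to 1.15 times in mutant males, but at 1.73 to 2.75 times in the 8 libraries on the deposited RPKM scale.

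Col2a1 (ENSMUSG00000022483, GRCm38 chromosome 15, 97975602 to 98004695, minus strand) codes for the single chain of collagen II and, in another trimer, for the third chain of collagen XI. It drew 103 and 79 reads in mutant males against 9 and 44 reads in control males, and 38 and 50 reads in mutant females against 29 and 41 reads in control females. In CPM that was 5.55 and 3.86 in mutant males against 0.501 and 2.44 in control males, and 2.06 and 2.65 in mutant females against 1.68 and 2.27 in control females. The male groups did not overlap, yet the 2 control males differed from each other by more, on the log2 scale, than the estimated change between the groups. The log2 change in males was 1.67 ± 0.54 (SE; edgeR adjusted p = 0.156). It was 0.94 without control male 1 and 3.21 without control male 2, with adjusted p = 0.429 and 0.0467 by edgeR. Each of those fits leaves a lone control male, which is assumed to vary like the other groups, and the change of 3.21 rests on the control library with 9 reads. In females the log2 change was 0.25 ± 0.54 (edgeR adjusted p = 1).

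Acan (ENSMUSG00000030607, GRCm38 chromosome 7, 79053483 to 79115099, plus strand), the gene of aggrecan, was close to the detection limit with 52 reads over all 8 libraries. Mutant males had 6 and 10 reads against 3 and 9 in control males, and mutant females had 2 and 9 reads against 5 and 8 in control females. Each library numbered 2 had more Acan reads than the library numbered 1 of its group, whatever the genotype. A genotype difference was not detectable at this depth: without the filter on low counts the log2 change in males was 0.29 ± 0.71 (SE; edgeR adjusted p = 0.859) and in females -0.32 ± 0.74 (adjusted p = 1).

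Chad (ENSMUSG00000039084, GRCm38 chromosome 11, 94565047 to 94569127, plus strand) codes for chondroadherin and lay opposite to Col9a1 in both sexes. It had 1.94 and 2.64 CPM in mutant males against 5.51 and 5.43 CPM in control males, and 3.91 and 4.19 CPM in mutant females against 2.38 and 1.77 CPM in control females. Mutants lay below controls in males and above them in females, with no overlap in either sex, and the 2 libraries of a group were close to each other. In males the log2 change was -1.25 ± 0.25 (SE; edgeR adjusted p = 0.0538), which misses the threshold of 0.05. In females it was 0.96 ± 0.26 with an edgeR adjusted p = 1 and an unadjusted p = 0.00483. Chad lies within Acsf2 on the opposite strand and the strand setting of the counting is not given, so reads of the pair may mix. Acsf2 had 34.3 and 30.8 CPM in mutant males against 30.1 and 44.4 CPM in control males, and 37.4 and 30.2 CPM in mutant females against 29.2 and 32.9 CPM in control females. Its groups overlapped in both sexes (edgeR log2 change -0.19 ± 0.19 SE in males and 0.12 ± 0.19 in females, adjusted p = 0.612 and 1).

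**Figure D3:**
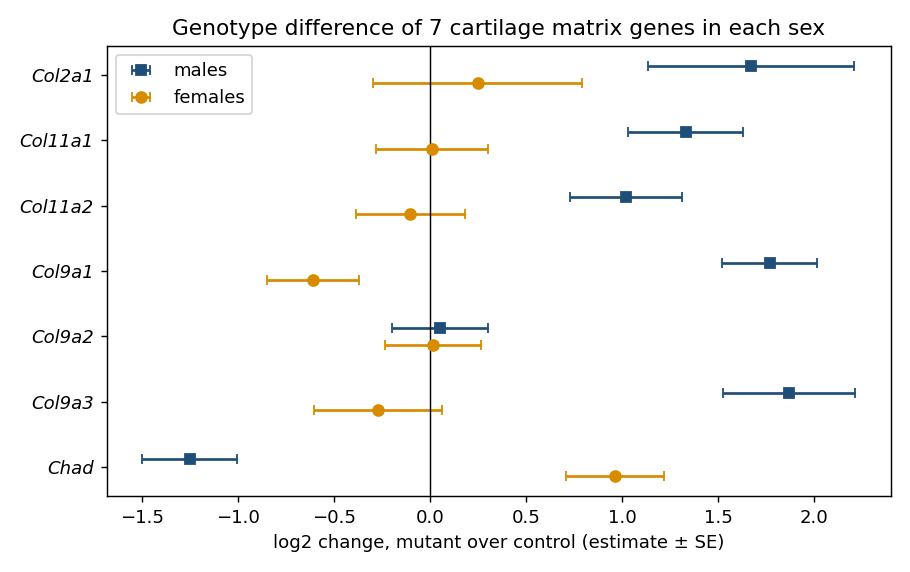
log2 change of mutant over control with its SE from the edgeR quasi-likelihood fit, in males (squares) and females (circles), for the 7 genes tested. In males Col9a3 (1.87), Col9a1 (1.77), Col2a1 (1.67), Col11a1 (1.33) and Col11a2 (1.02) lay right of 0 and Chad (-1.25) left of it, with Col9a2 at 0.05; in females Chad (0.96) and Col9a1 (-0.61) lay farthest from 0.

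Counted over the genes tested, 2 of 7 rose and 0 fell in males, where 0.259% of all 18164 genes rose and 1.04% fell. Their median log2 change in males was 1.33, beside 0.01 over all genes. Groups that do not overlap were common among all genes: beside the 26.9% above, 25.5% of genes had both mutant males below both control males, as 1 of the 7 (Chad) did. In females 1 of the 7 (Chad) lay above and 1 (Col9a1) below, beside 11.3% and 10.6% of all genes. The calls on Col9a1 and Col9a3 in males were lost without mutant male 1, mutant male 2 or control male 1. Those omissions also removed all or nearly all calls over all genes. Each leaves a single library in a group, but so does leaving out control male 2, which kept more calls. The cause of this difference was not tested. With each library left out in turn the log2 change in males ran from 1.53 to 2.06 for Col9a1 and from 1.40 to 2.56 for Col9a3.

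Libraries that share a number deviated together, so the replicate number was also fitted as a block. With the block, Col2a1, Col9a1, Col9a3, Col11a1 and Col11a2 rose and Chad fell in males, 5 and 1 of 7, beside 7.3% and 9.43% of all genes. The blocked edgeR adjusted p was 4.18e-05 for Col9a1, 0.000129 for Col9a3, 0.000477 for Col11a1, 0.0013 for Col11a2, 0.0191 for Col2a1 and 0.00467 for Chad. Col9a2 had a blocked log2 change of 0.08 ± 0.20 (SE) in males, with an adjusted p = 0.835 by edgeR. The pairing was weakest between the male groups themselves, with a correlation of 0.180 across genes between their deviations. In females, 0 of 7 genes were called with the block and 0.0771% of all genes were.

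The difference between the sexes was tested as the genotype effect in males minus that in females. It was 2.38 ± 0.34 (SE, log2) for Col9a1, 2.14 ± 0.48 for Col9a3, 1.42 ± 0.77 for Col2a1, 1.32 ± 0.42 for Col11a1, 1.12 ± 0.41 for Col11a2, 0.04 ± 0.35 for Col9a2 and -2.21 ± 0.35 for Chad. By edgeR's quasi-likelihood test 0 of the 7 passed, as did 0% of all genes (adjusted p = 0.317 for Col9a1, Col9a3 and Chad), while 5 of the 7 had an unadjusted p under 0.05, beside 12.5% of all genes. DESeq2 called 3 of the 7, beside 1.04% of all genes, edgeR's likelihood ratio test called 3, beside 1.08%, and limma-voom called 0. With the replicate block, Col9a1 (adjusted p = 0.000198), Col9a3 (0.00106), Col11a1 (0.00567), Col11a2 (0.00905) and Chad (0.00261) differed between the sexes by edgeR, 5 of 7 beside 9.33% of all genes. The controls of the sexes also stood apart in these values: Col9a1 averaged 6.22 ± 1.63 CPM in control males and 14.2 ± 3.34 CPM in control females, and Chad 5.47 ± 0.0587 CPM in control males and 2.08 ± 0.430 CPM in control females (SD, n = 2 each), a sex difference that was not tested.

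Pooled over the sexes, 0 of 7 genes passed edgeR's quasi-likelihood test, as did 0% of all genes, and 0 of 7 had an unadjusted p under 0.05, beside 5.84% of all genes. DESeq2, limma-voom and edgeR's likelihood ratio test also called 0 of the 7, and of all 18164 genes they called 88, 0 and 79. The log2 change over both sexes was 0.97 ± 0.45 (SE) for Col2a1, 0.79 ± 0.44 for Col9a3, 0.67 ± 0.30 for Col11a1, 0.57 ± 0.45 for Col9a1, 0.45 ± 0.27 for Col11a2, 0.03 ± 0.17 for Col9a2 and -0.18 ± 0.41 for Chad, each with an edgeR adjusted p of 0.86 or more. The authors' deposited table gave similar sizes and smaller false discovery rates: 0.69 and 0.000304 for Col11a1, 0.91 and 0.00316 for Col9a3, 0.47 and 0.0144 for Col11a2, and 1.09 and 0.0457 for Col2a1. There Col9a1 (0.66 and 0.0724), Chad (-0.15 and 0.906), Col9a2 (0.05 and 0.951) and Acan (-0.0027 and 0.998) were not under 0.05. Of all genes, 1.21% were higher in the authors' deposited table at a false discovery rate under 0.05. In females alone, 0 of 7 and 0% of all genes passed edgeR's quasi-likelihood test, and 2 of 7 (Col9a1 and Chad) had an unadjusted p under 0.05, beside 1.6% of all genes. DESeq2, limma-voom and the likelihood ratio test called 0 of the 7 in females, and 6, 0 and 8 of all 18164 genes.

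Across the 8 libraries Col9a1, Col9a3, Col11a1 and Col11a2 varied together. Col9a1 and Col9a3 had a Pearson r of 0.966 and a Spearman rho of 0.976 in log2 CPM (n = 8 libraries; exact permutation, p = 0.000124 and 0.000397, adjusted over 21 pairs 0.0026 and 0.00833), and r was 0.947 without the 2 libraries farthest from the median. Col11a1 and Col11a2 had an r of 0.939 and a rho of 0.810 (exact permutation, adjusted p = 0.00677 and 0.0572), and r was 0.935 without the 2 farthest. Col2a1 was less closely tied to some of them: with Col9a1 it had an r of 0.819 and a rho of 0.690 (exact permutation, adjusted p = 0.0156 and 0.132), and r was 0.531 without the 2 farthest. With Col11a2 it had an r of 0.770 and a rho of 0.619 (exact permutation, adjusted p = 0.0379 and 0.161), and r was 0.606 without the 2 farthest. Chad ran against Col9a1 with an r of -0.872 and a rho of -0.857 (exact permutation, adjusted p = 0.0164 and 0.0375), and r was -0.783 without the 2 farthest. Col9a2 had an r of 0.367 with Col9a1 and 0.530 with Col9a3 (rho 0.238 and 0.310; exact permutation, adjusted p = 0.403 and 0.212 for r and 0.611 and 0.539 for rho), and r was -0.53 and 0.29 without the 2 farthest. The permutations treat the 8 libraries as interchangeable, but these share genotype, sex and number, so the p-values also take in differences between groups. The 4 values within a genotype are too few for a correlation of their own.

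The genes most like the mean profile of the 7 genes over the 8 libraries were Pdcd4 (r = 0.995), Arhgef19 (0.987), Cldn6 (0.987), Lrrc49 (0.987), Plxna3 (0.981), Adamts18 (0.980), Svbp (0.977), Lhfpl2 (0.977), Eef1g (0.977) and Cpxm1 (0.973). They were picked as the highest of 18164 genes over 8 libraries, so the values are a description only. None of the 10 is in the cartilage lists used here. Adamts18, a secreted metalloprotease, moved by the widest fold of the 10, 9.14 between its highest and lowest library: 57.5 and 54.3 CPM in mutant males against 6.29 and 14.2 CPM in control males, and 16.9 and 29.0 CPM in mutant females against 16 and 28.2 CPM in control females. Pdcd4 spanned only 96.6 CPM (control male 1) to 137 CPM (mutant male 2).

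Of other proteins of cartilage matrix and chondrocytes, 11 were tested, and 2 rose and 0 fell in males, Fmod and Prelp, small leucine-rich proteoglycans that bind collagen in many connective tissues. Fmod, fibromodulin, had 297 and 237 CPM in mutant males against 72.7 and 127 CPM in control males (log2 change 1.42 ± 0.24 SE, edgeR adjusted p = 0.0370). Prelp had 45.0 and 44.6 CPM in mutant males against 22.3 and 25.2 CPM in control males (0.91 ± 0.13, adjusted p = 0.0312 by edgeR). In females Fmod had 189 and 169 CPM in mutants against 124 and 150 CPM in controls (log2 change 0.39 ± 0.24 SE), while Prelp overlapped. Every mutant library of Fmod thus lay above every control library, as in 1.65% of all genes. The median log2 change of the 11 in males was 0.91. Both calls were lost without mutant male 1, mutant male 2 or control male 1, as were all or nearly all calls over all genes. That of Prelp was also lost without control male 2. With each library left out in turn the log2 change in males ran from 1.07 to 1.88 for Fmod and from 0.83 to 1.00 for Prelp. Cytl1, a secreted protein of cartilage, had 23.9 and 22.8 CPM in mutant males against 4.56 and 9.19 CPM in control males (1.76 ± 0.56, edgeR adjusted p = 0.154, 0.00419 with the block). Lect1, chondromodulin, had 0.861 and 1.81 CPM in mutant males against 0.334 and 0.831 CPM in control males (edgeR adjusted p = 0.313). The male groups of both genes were apart, with mutants above controls, though neither passed the test. Hapln1, the link protein of aggrecan, had 44.3 and 70.4 CPM in mutant males against 65.9 and 51.3 CPM in control males, with overlapping groups. With the replicate block 4 of the 11 rose and 1 fell, beside the 7.3% and 9.43% of all genes given above.

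Of 12 chondrocyte regulators tested, 0 were called in males by edgeR's quasi-likelihood test, 5 had an unadjusted p under 0.05 (19.3% of all genes had), and 3 rose and 3 fell with the block. Sox9, the master regulator of chondrocytes and also a factor of distal lung epithelium, had 77.8 and 73.3 CPM in mutant males against 34 and 47.9 CPM in control males (log2 change 0.88 ± 0.18 SE, edgeR adjusted p = 0.0578, 0.00111 with the block). In females Sox9 was at 50.7 and 49.0 CPM in mutants against 42.8 and 56.0 CPM in controls, which overlap. Its partners Sox5 and Sox6 had log2 changes of 0.16 ± 0.16 and 0.14 ± 0.14 (SE) in males (edgeR adjusted p = 0.621 and 0.608). Zbtb20 and Gdf5, picked by the same rule as Sox9, fell in males by -0.48 ± 0.12 and -2.78 ± 0.94 (SE). Their edgeR adjusted p was 0.0968 and 0.173, and 0.0107 and 0.0218 with the block. Gdf5 had only 1 and 4 reads in mutant males against 26 and 7 reads in control males. In females both genes were higher in mutants with no overlap (log2 change 0.27 ± 0.12 for Zbtb20 and 1.53 ± 0.87 for Gdf5, SE). Of the 12 regulators, 9 had a positive and 3 a negative log2 change in males, beside 9320 and 8844 of all 18164 genes.

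**Figure D4:**
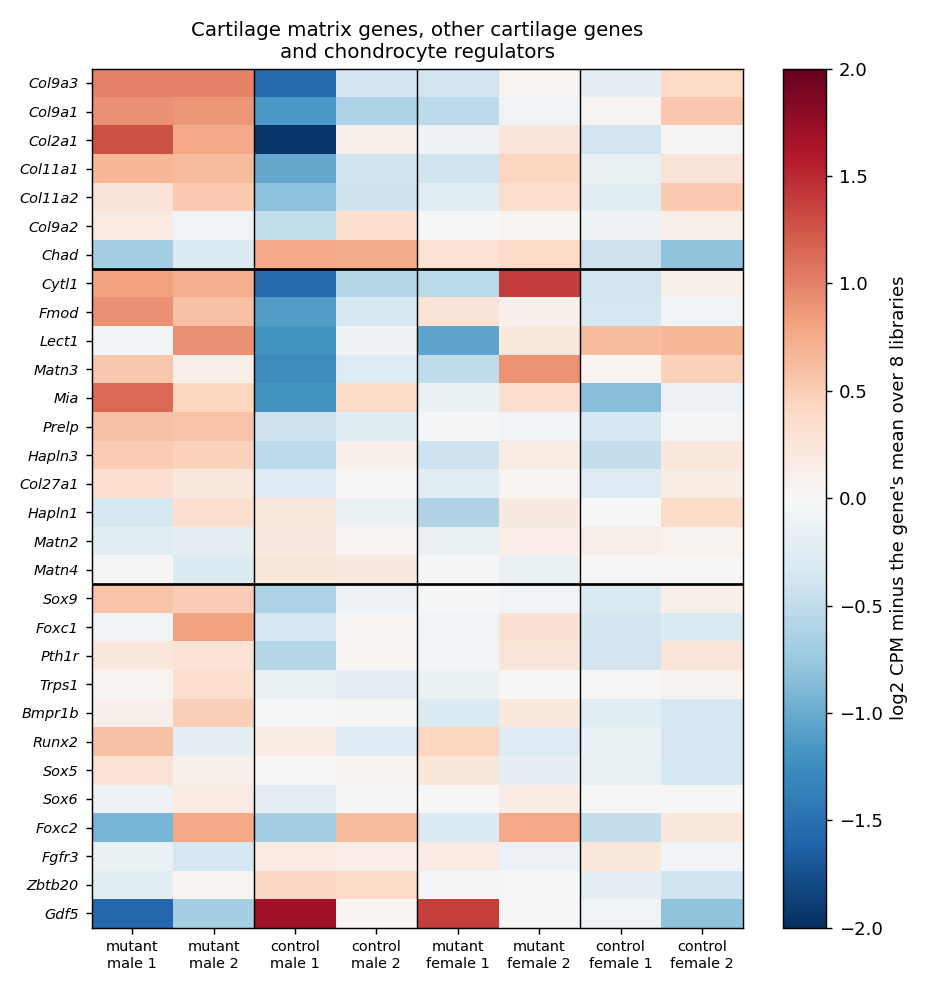
log2 CPM of each gene minus its mean over the 8 libraries, for the 7 tested genes (top block), other cartilage genes (middle) and chondrocyte regulators (bottom), each sorted by change in males; rows of low level carry more counting noise. Control male 1 held the lowest value of Col9a3 (4.90 CPM), Col9a1 (5.07 CPM), Col2a1 (0.501 CPM), Col9a2 (10.6 CPM), Col11a1 (8.29 CPM) and Col11a2 (5.90 CPM). Averaged over the 7 tested genes, the plotted value was -0.885 in control male 1 and -0.0859 in control male 2. Chad was highest in the control males (5.51 and 5.43 CPM).

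Genes that process the matrix were examined as groups. In males 19.3% of all genes had an unadjusted p under 0.05, and with the block 7.3% of all genes rose and 9.43% fell, against which the counts here and in the marker lists are to be read. Of 27 genes of collagen synthesis, 0 were called in males by edgeR's quasi-likelihood test (7 with an unadjusted p under 0.05), with a median log2 change of -0.00, and 2 rose and 4 fell with the block. Pcolce2, an enhancer of procollagen cleavage, was at 8.08 and 8.25 CPM in mutant males against 22.5 and 13.6 CPM in control males (log2 change -1.14 ± 0.24 SE, edgeR adjusted p = 0.0617, 0.00166 with the block). Of 20 genes of aggrecan synthesis and turnover 0 were called (3 unadjusted), with 1 rise and 1 fall under the block. Slc26a2, the sulphate transporter, had 29.4 and 37.2 CPM in mutant males against 55.1 and 48.7 CPM in control males (-0.64 ± 0.15, edgeR adjusted p = 0.0817, 0.00441 with the block). Mutant females lay below control females as well (37.0 and 45.1 against 46.9 and 49.4 CPM). Every mutant library of Slc26a2 thus lay below every control library, as in 1.74% of all genes. Chst11 was the rise (0.52 ± 0.14 in males, edgeR adjusted p = 0.104, 0.00980 with the block). Of 10 other fibril collagens and their partners 0 were called (1 unadjusted), and 2 rose with the block, among them Col12a1 (0.41 ± 0.13, edgeR adjusted p = 0.147, 0.00562 with the block). Changes of the size seen for Col9a1 were thus not met among the genes named from these groups.

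Markers of other tissues that a dissected lung may carry were read beside these values, and their part in the result was not tested. Of 14 skeletal muscle markers, 8 had a row and Myod1, Myog, Pax7, Myh8, Myl1 and Tnnc2 had none, and the summed level was 19.5 to 20.9 CPM in mutant males, 15.3 to 21.5 CPM in control males, 17.4 to 23.9 CPM in mutant females and 16.6 to 19.2 CPM in control females. Of the 7 tested, 6 had a positive and 1 a negative log2 change in males, with a median of 0.19. By edgeR 0 were called in males (1 unadjusted), and 1 rose with the block, Actn3, the actinin of fast muscle fibres (log2 change 1.12 ± 0.33 SE, edgeR adjusted p = 0.137, 0.0490 with the block). Of 11 bone markers 7 had a row and Bglap, Bglap2, Mepe and Dlx5 had none, with sums of 72.1 to 76.1 CPM in mutant males, 55.6 to 74.1 CPM in control males, 57.7 to 66.6 CPM in mutant females and 65.1 to 71.5 CPM in control females. In males 3 of the 7 had a positive and 4 a negative log2 change, 0 were called by edgeR (2 unadjusted), and 1 rose and 1 fell with the block. Ibsp, bone sialoprotein, ordered the male libraries as the collagen genes did, with 19.0 and 19.4 CPM in mutant males against 2.23 and 7.09 CPM in control males (log2 change 2.04 ± 0.42 SE, edgeR adjusted p = 0.0598, 0.000801 with the block). Alpl, alkaline phosphatase, was ordered the other way, with 2.75 and 2.49 CPM in mutant males against 5.34 and 4.15 CPM in control males (-0.86 ± 0.24, edgeR adjusted p = 0.126, 0.0310 with the block).

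Of 14 markers of the large airway, its glands and the oesophagus 6 had a row, and Krt5, Krt14, Krt13 and Krt6a had none. The sums were 8.61 to 12.8 CPM in mutant males, 12.2 to 18.6 CPM in control males, 7.76 to 22.2 CPM in mutant females and 6.97 to 9.98 CPM in control females. In males 3 of the 6 had a positive and 3 a negative log2 change. By edgeR 0 were called in males (3 unadjusted), and 0 rose and 2 fell with the block. Muc5b, a mucin of airway glands, had 0.538 and 0.879 CPM in mutant males against 6.01 and 7.09 CPM in control males (log2 change -3.19 ± 0.94 SE, edgeR adjusted p = 0.136, 0.00415 with the block), and 0.814 and 9.75 CPM in mutant females against 0.813 and 1.44 CPM in control females. Krt4, a keratin of stratified epithelium, had 0.0538 and 0.440 CPM in mutant males against 0.668 and 1.88 CPM in control males (-2.30 ± 0.98, edgeR adjusted p = 0.249, 0.0160 with the block). The male groups of both genes were apart with mutants below controls, the order opposite to that of Col9a1 and Col9a3, and their part in the result was not tested. Ltf, picked by the same rule, went the other way in males (0.72 ± 0.24, edgeR adjusted p = 0.164, 0.0586 with the block). Of 9 markers of tendon and perichondrium, the sheath of cartilage, 7 had a row, with sums of 667 to 702 CPM in mutant males, 576 to 708 CPM in control males, 637 to 670 CPM in mutant females and 611 to 673 CPM in control females. In males 6 of the 7 had a positive and 1 a negative log2 change, with a median of 0.64, and 0 were called by edgeR (4 unadjusted). Tnc, tenascin C, had a log2 change of 0.50 ± 0.11 (SE) in males (edgeR adjusted p = 0.0747, 0.00489 with the block), and 3 of the 7 rose with the block.

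Of 12 markers of lung epithelium and mesenchyme all had a row, and 11 had a negative log2 change in males, beside 8844 of all 18164 genes. In females 9 of the 12 had a positive log2 change, beside 8952 of all 18164 genes. By edgeR 0 were called in males, 5 had an unadjusted p under 0.05, and 6 fell with the block. Hopx, a marker of type 1 alveolar cells, had 164 and 99.6 CPM in mutant males against 273 and 223 CPM in control males (log2 change -0.91 ± 0.30 SE, edgeR adjusted p = 0.160, 0.000213 with the block), and Abca3, the lipid transporter of type 2 cells, 389 and 359 CPM in mutant males against 711 and 517 CPM in control males (-0.71 ± 0.21, adjusted p = 0.131 by edgeR, 0.000763 with the block). In females the log2 change was -0.08 ± 0.29 (SE) for Hopx and 0.14 ± 0.20 for Abca3. The male values of these epithelial genes moved with the male comparison in which the collagen genes were higher, and their part in it was not tested.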

How the data were processed

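The labels gave genotype and sex, with 2 libraries in each of 4 groups. The authors deposited raw read counts per gene, per the file headers, and the tests here used these counts. The deposited table also holds RPKM values, which are not tested here. For mutant against control it lists the authors' own log2 fold change, the LR score, its p-value and an FDR. Per the submitters' processing notes the tools were HTSeq 0.6.1p2, STAR 2.5.2b, cutadapt 1.13, edgeR 3.16.5 and Trimmomatic 0.35, without roles. Build, annotation and strand setting of the counting were not given in the sources used here. Coordinates are from GENCODE M21 on GRCm38, matched by gene ID. The lowest gene total in the table was 28 reads.

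Counts were fitted with edgeR 4.0.16 in R 4.3.3: TMM, the filterByExpr filter at a count of 10 (leaving 18164 of 19150 genes), quasi-likelihood F tests and Benjamini-Hochberg adjustment over all genes tested, at 0.05. The sexes were compared in a fit of 4 group means, and the pooled effect in a fit of sex and genotype. The scripts were tested on simulated data. Alternatives were RLE size factors, DESeq2 1.42.0, limma-voom 3.58.1, the likelihood ratio test, other filters, the replicate block, each library left out and the deposited comparison. Same-numbered libraries deviated together across 12793 genes in all 6 pairs of groups (r = 0.180 to 0.626), so blocked values stand beside results that they change. What the number marks is not given in the labels. Within a group, Spearman correlations were 0.988 to 0.991. The median over genes of the squared difference between the 2 libraries of a group was 1.96 to 2.48 times its Poisson variance, so none was counted as a repeat of another.

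The 8 genes and the lists were chosen with earlier results of these data known, so counts over the 8 genes and over the lists are descriptions. Besides the 8 genes, the named ones are the called ones, or those with the 3 smallest p in males, of each list, of which the text gives a part, and the 10 most like the mean profile of the 7 tested genes. Further list genes (Hapln1, Lect1, Sox5, Sox6) were named after their values were seen. Sftpb has 2 rows in the table, which may split its reads, and its first row entered the lung list. Permutation tests used scipy 1.17.1.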

Additional observations from a re-analysis of the deposited data

Results flagged for a closer look

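Col9a1 was singled out because its genotype effect pointed in opposite directions in the sexes, with every mutant male above both control males and every mutant female below both control females. Its effect in males minus that in females was 2.38 on the log2 scale (SE 0.34), with an edgeR adjusted p = 0.317, and 0.000198 with the replicate block. Chad was singled out for the opposite arrangement, with mutants below controls in males and above them in females. Its effect in males minus that in females was -2.21 (SE 0.35), with an edgeR adjusted p = 0.317, and 0.00261 with the replicate block. Over the alternatives Col9a1 ran from 2.11 to 2.67 (adjusted p from 6.76e-06 to 0.755) and Chad from -2.45 to -2.01 (adjusted p from 0.00012 to 0.779).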

How the results depend on the processing

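Of the 7 genes tested, the number called in males (2) was 5 with DESeq2, 6 with edgeR's likelihood ratio test and 6 with the replicate block. Without mutant male 1, mutant male 2 or control male 1 none of the 7 was called in males, and all or nearly all calls over all genes were lost too. In the difference between the sexes (0) the number called was 3 with DESeq2, 3 with the likelihood ratio test and 5 with the replicate block. Over both sexes (0) it was 4 in the authors' deposited comparison. The block changed no count in females or over both sexes. The cause of these differences was not tested. Over all genes the calls in males (235) were 855 with DESeq2, 1096 with the likelihood ratio test, 183 with limma-voom and 3038 with the block.

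Leaving out each library gave Col9a2 a log2 change of -0.116 to 0.215 over both sexes, -0.305 to 0.532 in males, -0.0913 to 0.129 in females and -0.32 to 0.517 in the difference between the sexes. It gave Chad -0.513 to 0.171 over both sexes, and in females Col9a3 -0.533 to 0.0511, Col11a1 -0.463 to 0.367 and Col11a2 -0.419 to 0.311. Col11a1 in females was -0.033 with limma-voom and -0.0114 with the replicate block. For list genes tried after seeing the data, it gave in males Hapln1 -0.405 to 0.26 and Sox6 -0.00596 to 0.269. Among the 7 genes, in males no other sign than that of Col9a2 turned: Col9a1 ran from 1.53 to 2.06 and Col9a3 from 1.40 to 2.56, each called in 12 of 15 alternatives. Depth limits Acan (52 reads) and Col2a1 (393 reads) most.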
